A study of Rattus norvegicus with 4 samples.

Results

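Inhibitory interneurons of the cortex release GABA and are born in the ganglionic eminences of the ventral forebrain, from where they migrate into the cortex. Homeodomain factors of the DLX family drive the ventral programme that turns progenitors into GABAergic neurons, and NKX2-1 and its target LHX6 specify the cells of the medial eminence, which become somatostatin and parvalbumin interneurons. The genes described here are 9 transcription factors and markers of that lineage: Dlx1, Dlx2, Dlx5, Dlx6, Lhx6, Nkx2-1, Erbb4, Calb2 and Reln. They were taken as every gene probe whose name in the array files is one of these symbols, which found 8 of the 34235 gene names on the array. Of 41012 gene probes, 9 met the rule, with 1 probe for each of 7 genes and 2 for Reln. Dlx6 matched no probe by this rule and was not analysed here. All 9 probes were well above background on all 4 arrays and none was saturated.

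The arrays measured total RNA from cortical neurons of Sprague Dawley rat embryos of both sexes, taken at stage E18.5 and grown in culture. Virus was added to both groups on culture day 2, and RNA was collected on day 7. The shCTL virus carried a control shRNA and the shCM1 virus an shRNA against Cmtr1, a methyltransferase that completes the cap at the start of mRNAs. Each group held 2 arrays from separate experiments, and the sample titles use the prefix si where the shRNA field uses sh. The shRNA sequences were not used here, so off-target effects and those of Cmtr1 loss cannot be told apart.

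Between 84.0% and 90.4% of gene probes were well above background, and the 75th percentile signal of the arrays ran from 596.3 to 754.5. Replicate 1 of both groups lay on slide 1 and replicate 2 of both on slide 2, and each slide was scanned separately. Slide, scan and replicate number therefore split the arrays in the same way. Cmtr1, the targeted gene, was at 27.7% of its control level, with log2 differences of -2.04 and -1.67 within the slides. The mean difference was -1.85, and -1.22 with normexp background correction. All 10 general neuronal markers were well above background on every array. Each level given here is the log2 signal minus the log2 of the 75th percentile of its array, and differences are shCM1 minus shCTL. A level is read only against the same probe on another array, since probes differ in brightness for a given amount of RNA.

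The probe sequences show which stretch of each transcript the values come from. They are given 5′ to 3′ in lower case, whole for Dlx1, Dlx2, Lhx6, Nkx2-1 and Erbb4 and by their first 30 bases for Dlx5, Calb2 and Reln.
Dlx1: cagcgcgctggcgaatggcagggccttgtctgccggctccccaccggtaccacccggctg
Dlx2: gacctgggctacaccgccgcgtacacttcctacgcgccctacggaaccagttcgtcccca
Dlx5: acccttttttgcgcaactgtggacactatc
Lhx6: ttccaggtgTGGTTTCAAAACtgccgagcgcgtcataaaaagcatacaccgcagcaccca
Nkx2-1: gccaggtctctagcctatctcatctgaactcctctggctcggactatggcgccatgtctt
Erbb4: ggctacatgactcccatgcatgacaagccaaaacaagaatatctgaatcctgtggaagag
Calb2: caattccaggttctgtccaccggcttgcta
Reln, probe A_44_P1026292: tatgcagaaagttaattcagatacctatcg
Reln, probe A_44_P294737: cgtggctggtttactaacagtaactgccat
The capitals in the Lhx6 probe, bases 10 to 21, are the codons for Trp-Phe-Gln-Asn, a signature of the DNA-recognition helix shared by homeodomain proteins. The other homeobox probes do not hold these codons. Over the 36 pairs of probes the longest run of bases in common on either strand was 9, so the 4 DLX and LHX probes, and both Reln probes, read separate sequence.

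In the coordinates of the files, whose headers name build rn4, the Dlx1 probe lies at chr3:53840022-53840081 on the plus strand. The Dlx2 probe lies at chr3:53853700-53853759 on the minus strand, 13.6 kb away, and these genes are neighbours that face each other. Dlx5 was read at chr4:31778601-31778660 (minus strand), and RefSeq places Dlx6 as its neighbour. The Lhx6 probe spans chr3:15201920-15202161 and the Erbb4 probe chr9:66844421-66846151, both on the minus strand. These spans of 242 and 1731 bases exceed the 60 bases of a probe, so each joins transcript sequence that lies apart in the genome. The Nkx2-1 probe is at chr6:76918153-76918212 and the Calb2 probe at chr19:40023194-40023254, both on the minus strand. The Reln probes are 198 bases apart on the plus strand, at chr4:8608768-8608827 and chr4:8609026-8609085.

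Of the members, 5 had a promoter in the RefSeq table of build GRCr8, each 250 bases before to 50 after the start of the gene, namely Dlx1, Lhx6, Nkx2-1, Erbb4 and Reln. The letters TAATT, the core that many homeodomain factors recognise, were searched on both strands. They occurred once each in the promoters of Nkx2-1 and Erbb4 and not in the windows of the other 3. Of all 33469 promoters of that length, 28.5% held them. The matches are shown in capitals with 10 bases on either side, read along the gene; the Nkx2-1 match starts 169 bases before the gene and the Erbb4 match 1 base before it.
Nkx2-1, chr6:79735022-79735046, minus strand: cactcaagccAATTAaggcggactc
Erbb4, chr9:78045593-78045617, minus strand: tttggacatgTAATTgtcagcgcgg
The longer TAATTA was in 5.36% of all promoters and in none of these 5 windows.

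Dlx5, Dlx1, Erbb4 and 1 of the Reln probes rose in shCM1 neurons when the slide was taken as a block, by 1.31-fold to 1.5-fold, and no member fell. The block compares arrays of the same slide with each other. In that limma fit 4 of 9 member probes passed an adjusted p of 0.05, all 4 higher, where 3.20% of all 36696 probes tested passed as higher and 2.69% as lower. The members and the gene lists below were chosen with earlier results of these data known. Their counts beside the shares of all probes are therefore descriptions and not tests. Without the block limma called 0 member probes, as it called 0% of all probes. At an unadjusted p under 0.05 there were then 2 member probes, Dlx5 and Erbb4, and 1109 probes in all. The calls also rest on limma's intensity trend: with the block but no trend, 0 probes passed (6289 at an unadjusted p under 0.05, 4 of them member probes), and the adjusted p of the members was 0.242 or more. Every SE given here, except where the block is named with it, is from the fit without the block, which counts a step between slides as spread. Fits that leave out 1 array have no slide term either, so such a step enters their difference. The arrays hold bulk RNA, so more cells of a type and more RNA per cell cannot be told apart. The smallest p that an exact two-sided permutation test can give for 1 probe is 0.33 when the 4 arrays are relabelled freely. Relabelling only within slides allows fewer arrangements, so its smallest p is larger. The replicates are named as separate experiments but not as separate litters, and the p-values measure no spread beyond these samples. In the blocked fit the spread of a probe was estimated mostly from other probes of like intensity, not from its own 4 arrays. The prior degrees of freedom, which weigh the other probes, were 14.82 with the block and 3.353 without it.

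Of the 9 member probes, 7 were higher in shCM1 within both slides, 1 was lower within both and 1 went opposite ways. Among all probes tested 44.2% were higher within both slides and 22.6% lower within both. Both shCM1 arrays lay above both shCTL arrays for 5 member probes, against 21.8% of all probes, and below them for 1, against 10% of all probes. The median difference over the member probes was 0.39, with 0.22 on slide 1 and 0.42 on slide 2, and the median over all probes was 0.08.

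**Figure D1:**
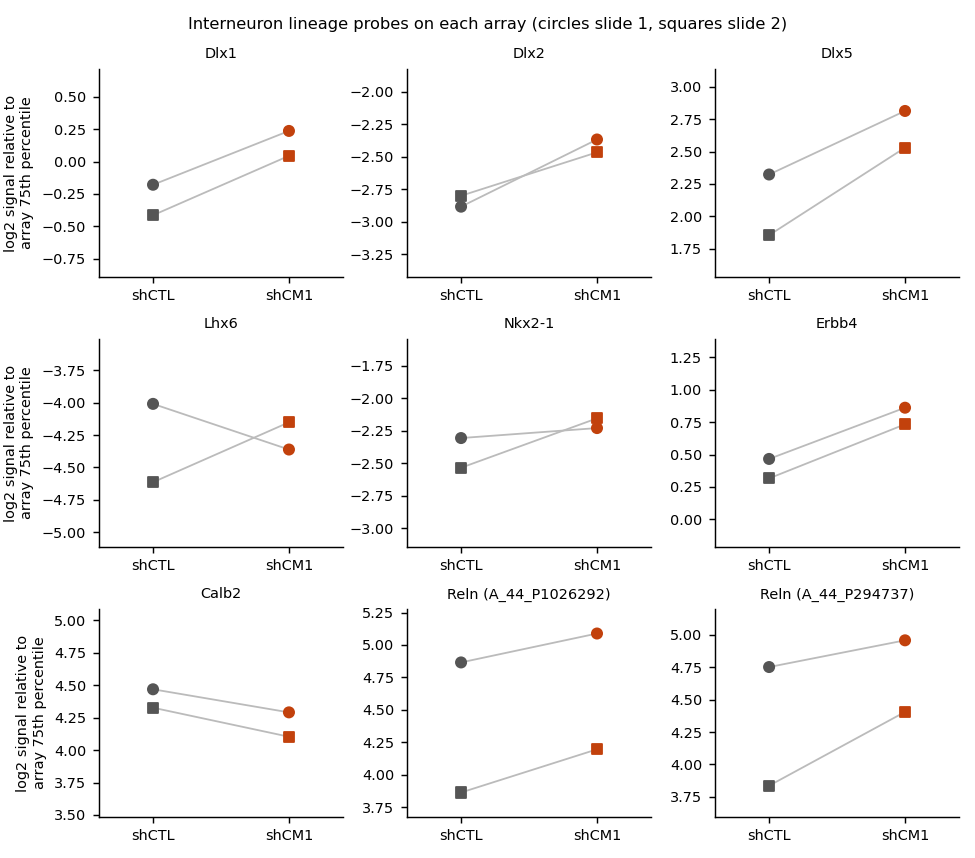
Log2 signal relative to the 75th percentile of the array for each of the 9 member probes, with shCTL in grey and shCM1 in orange. Circles are slide 1, squares are slide 2, lines join the arrays of a slide, and every panel spans the same height. For Dlx1, Dlx2, Dlx5, Nkx2-1 and Erbb4 both shCM1 arrays lie above both shCTL arrays, for Calb2 both lie below, and for Lhx6 and Reln the groups overlap.

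Dlx5, which acts in differentiating neurons of the ventral lineage, had the largest difference of the members. Its level was 2.32 and 1.86 on the shCTL arrays and 2.81 and 2.53 on the shCM1 arrays of slides 1 and 2. Both shCM1 arrays were above both shCTL arrays. The log2 difference was 0.58 (SE 0.22 without the block, n = 2 arrays per group), a 1.5-fold rise, with 0.49 and 0.68 within the slides. With the block limma gave an adjusted p of 0.00126, and without it 1. Without shCTL replicate 2 the difference was 0.35.

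Dlx1, the factor that keeps interneurons alive and in their subtype after they settle in the cortex, rose by nearly the same amount on both slides. Its shCTL levels were -0.18 and -0.41 and its shCM1 levels 0.24 and 0.04. The groups did not overlap, and slide 1 was the higher slide in each. The difference was 0.44 (SE 0.18), or 1.35-fold, with 0.42 and 0.46 within the slides. The blocked adjusted p from limma was 0.0223. With the block it was 0.0579 after cyclic loess and 0.0529 in the authors' deposited table of values, so the call ended there, although the difference was still 0.43 in each.

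Dlx2, the partner of Dlx1 in progenitors, did not pass. The shCTL arrays read -2.88 and -2.80 and the shCM1 arrays -2.37 and -2.47. The groups stood apart, with a difference of 0.43 (SE 0.18) and within-slide values of 0.52 and 0.33. The adjusted p with the block was 0.0798 by limma. Its difference was smaller under each of the other scalings. It was 0.27 with normexp and 0.30 after quantile normalization, after cyclic loess and in the authors' deposited table. The adjusted limma p with the block ran from 0.148 to 0.281 under these. Of the DLX genes outside the members, Dlx3 and Dlx4 were well above background on 3 arrays each and neither passed. Dlx4 read -8.31 on shCTL replicate 1 and between -5.59 and -5.15 on the other arrays, so its difference of 1.51 (SE 0.96) was 0.09 without that array.

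Nkx2-1, the factor that sets medial ganglionic eminence identity, did not pass the test. It read -2.31 and -2.53 in shCTL and -2.23 and -2.15 in shCM1. The groups were apart by a narrow margin, and the difference was 0.23 (SE 0.19), with 0.08 on slide 1 and 0.38 on slide 2. Its blocked adjusted p was 0.334 by limma, and the difference was between 0.12 and 0.14 under the other scalings. Leaving out shCTL replicate 2 gave 0.11.

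Lhx6, which NKX2-1 switches on and which migrating and mature medial interneurons keep expressing, lay closest to background among the members and showed no common direction. Its signal was at least 3.59 times the lowest signal well above background on the same array. The shCTL levels were -4.01 and -4.61 and the shCM1 levels -4.36 and -4.15, so each shCM1 array lay between the shCTL arrays. On slide 1 it was lower by -0.35 and on slide 2 higher by 0.46. The mean difference was 0.05 (SE 0.30), turned to -0.15 after quantile normalization and was -0.16 after cyclic loess. With the block the adjusted limma p was 0.911. Other factors of the ganglionic eminences did not share a direction either. Of 12 that are not members 2 rose and 1 fell in the blocked fit. Gsx1 (0.56, SE 0.18), a progenitor gene, was among those that rose, and Npas1 (-0.47, SE 0.21), of more mature interneurons, fell. Gsx1 did not pass under any of the other 4 scalings with the block (limma, adjusted p from 0.0766 to 0.121). Npas1 passed under each of those 4 (limma, adjusted p from 0.026 to 0.0442). It ran from -0.67 without shCTL replicate 2 to -0.28 without shCTL replicate 1 when 1 array was left out. The median of the 12 was 0.09, close to that of all probes. None of the 6 measured caudal eminence genes passed; Sp9 had 0.30 (SE 0.21) and Sp8 0.50 (SE 0.28).

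**Figure D2:**
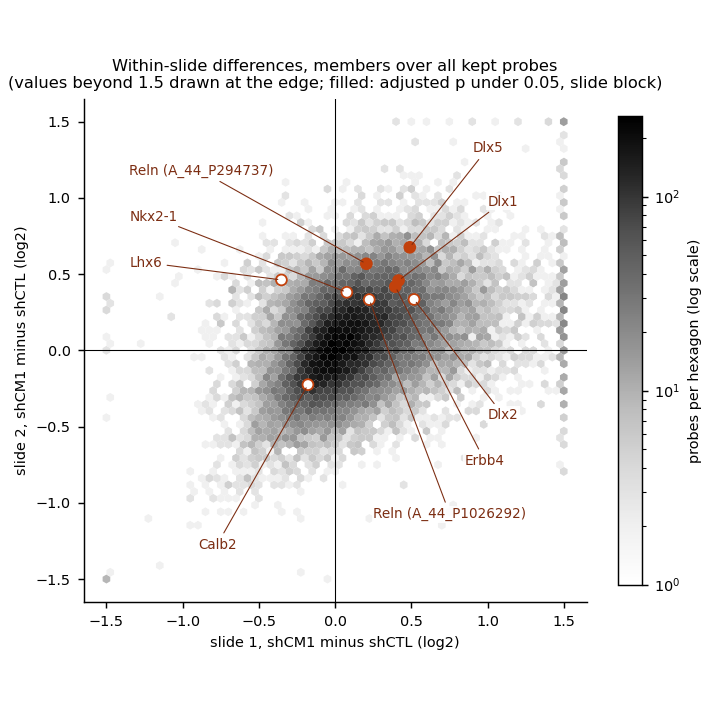
Difference on slide 1 (x axis) against slide 2 (y axis), shCM1 minus shCTL on the log2 scale, for the member probes over all 36696 probes kept, whose number per hexagon is shaded on a log scale. Filled circles passed the slide-blocked limma fit. Lhx6 is the member in the quadrant of opposite signs, Calb2 is lower on both axes, and Dlx1 and Erbb4 nearly coincide.

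Erbb4 encodes the neuregulin receptor tyrosine kinase through which interneurons are guided into the cortex and receive excitatory synapses. It read 0.47 and 0.32 in shCTL and 0.86 and 0.73 in shCM1, with no overlap. The difference was 0.41 (SE 0.16), or 1.33-fold, and the slides gave 0.40 and 0.42, the smallest gap between slides among the members. The limma adjusted p with the block was 0.0248. The call ended with normexp (0.0583, difference 0.34) and after cyclic loess (0.0510, difference 0.42), both with the block. Its ligands and partner receptors did not pass. Of the 10 on the list 6 were measured, with a median of 0.08, and the EGF-like ligand Hbegf had -0.28 (SE 0.25) and the receptor Egfr 0.18 (SE 0.16). Hbegf ran from -0.51 to -0.041 and Egfr from 0.049 to 0.31 when 1 array was left out. Nrg1, the main neuregulin gene, had 0.11 by its brightest probe, with 0.112 and 0.105 within the slides. Its other probes had 0.08 and 0.417, and the latter ran from 0.372 to 0.463 when 1 array was left out. Erbb2 had 0.05. The brightest Nrg1 probe and Erbb2 turned negative without shCTL replicate 2 (-0.18 and -1.25) and without shCM1 replicate 1 (-0.18 and -1.08). Erbb2 read 1.83 on shCTL replicate 1 and 1.72 on shCM1 replicate 1 but -0.76 and -0.55 on slide 2.

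Calb2, the gene of the calcium buffer calretinin, which marks a class of interneurons and also Cajal-Retzius cells, was the one member lower in shCM1. Its levels were 4.47 and 4.33 in shCTL and 4.29 and 4.10 in shCM1. The shCM1 arrays were below both shCTL arrays, by a narrow margin. The slides gave -0.18 and -0.23, a mean difference of -0.20 (SE 0.14), which ran from -0.30 without shCM1 replicate 1 to -0.11 without shCM1 replicate 2. It did not pass, with a blocked adjusted p of 0.145 by limma. It was -0.13 after quantile normalization, after cyclic loess and in the authors' deposited table.

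Reln encodes reelin, a secreted glycoprotein that positions migrating neurons and is made by Cajal-Retzius cells and later by interneurons. Probe A_44_P294737 read 4.75 and 3.84 in shCTL and 4.96 and 4.41 in shCM1. Probe A_44_P1026292 read 4.87 and 3.86 in shCTL and 5.09 and 4.20 in shCM1. On both probes slide 2 was below slide 1 in each group, by -0.92 and -1.0 in shCTL and by -0.55 and -0.89 in shCM1, so the groups overlapped and the step between slides was larger than that between groups.

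Within the slides Reln was higher in shCM1 on both probes, by 0.21 and 0.57 for A_44_P294737 and by 0.22 and 0.33 for A_44_P1026292. The difference was 0.39 (SE 0.35) for the former and 0.28 (SE 0.43) for the latter. The blocked limma fit gave an adjusted p of 0.0203 and 0.0506, so the probes fell on either side of the threshold. Whether they differ from each other was not tested. With normexp and the block neither passed (0.0539 and 0.108). Both passed with the block in the other scalings, by limma adjusted p. These were quantile normalization (0.0157 and 0.027), cyclic loess (0.0408 and 0.0447) and the authors' deposited table (0.0267 and 0.0327). The fit without the block turned negative when shCTL replicate 2 was left out, at -0.071 and -0.22, and gave 0.84 and 0.78 without shCTL replicate 1. Without shCM1 replicate 1 it gave 0.11 and -0.17, and without shCM1 replicate 2 it gave 0.66 and 0.73.

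Of 12 reelin receptor and signalling genes 1 rose and none fell with the block: Itgb1, an integrin subunit, had 0.36 (SE 0.15). The receptors Vldlr (0.29, SE 0.22) and Lrp8 (0.15, SE 0.13) and the adaptor Dab1 (-0.05, SE 0.15) did not pass. Dab1 had 0.094 by its other probe. The median of these 12 was 0.06.

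Cajal-Retzius cells make Reln and Calb2 together, and 6 other genes known from them were measured. Their median was 0.38, all 6 were higher in shCM1 on each slide, and 2 rose in the blocked limma fit. Of all probes tested, 44.2% were higher on each slide and 3.20% rose in that fit. The list was chosen with earlier results of these data known, and it leaves out Reln and Calb2. Reln was higher within both slides by both probes, but Calb2 was lower, at -0.178 and -0.225. The 2 genes of the list that rose were the transcription factors Nhlh2 (0.69, SE 0.17) and Ebf2 (0.85, SE 0.34). Ebf2 passed under none of the other 4 scalings (adjusted p from 0.0715 to 0.139 with the block) and had 0.39 without shCTL replicate 1 and 1.31 without shCTL replicate 2. With normexp Nhlh2 had 0.49 and Ebf2 0.42. Tp73, a defining marker, had 0.20 (SE 0.27) and did not pass. It turned to -0.017 after quantile normalization and in the authors' deposited table, and to -0.029 after cyclic loess. Lhx1 and Lhx5 were well above background on 0 and 1 arrays.

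**Figure D3:**
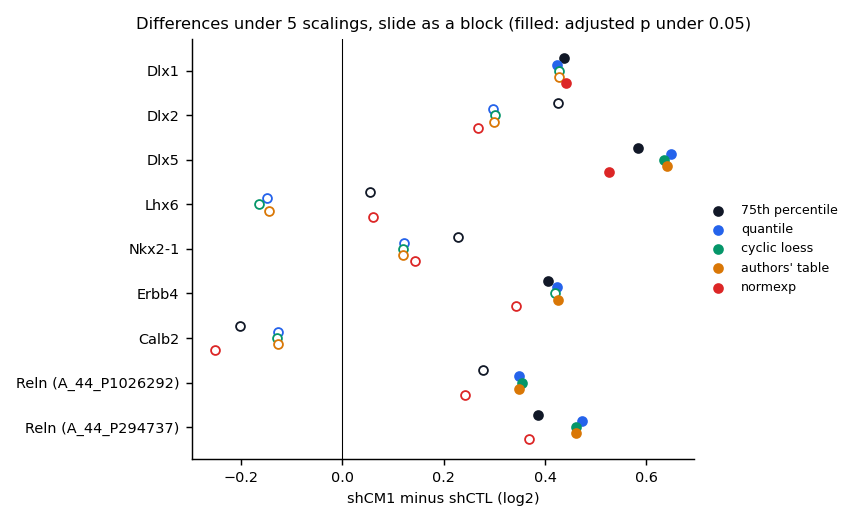
Log2 difference of each member probe (shCM1 minus shCTL) under 5 scalings, all with the slide as a block; filled points passed an adjusted p of 0.05. Dlx5 passed under all 5, Dlx1, Erbb4 and Reln under some, and Dlx2, Lhx6, Nkx2-1 and Calb2 under none. Lhx6 changes sign.

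Genes of GABAergic neurons and interneuron subtypes moved in both directions. Of 15 GABAergic and subtype genes that are not members, 4 rose and 2 fell with the block, and the median was 0.05. Gad1 and Gad2, which make GABA, rose by 0.52 (SE 0.36) and 0.53 (SE 0.23). The neuropeptide gene Vip rose by 0.40 (SE 0.35) and Lamp5, of neurogliaform cells, by 0.91 (SE 0.41). Within the slides Vip had 0.361 and 0.432. Vip had 0.79 without shCTL replicate 1, 0.75 without shCM1 replicate 2, 0.0060 without shCTL replicate 2 and 0.042 without shCM1 replicate 1. Lamp5 had 0.42 without shCTL replicate 2, 1.396 without shCTL replicate 1 and 0.31 with normexp, and passed under none of the other 4 scalings (limma with the block, adjusted p from 0.0600 to 0.220). Crh, also a neuropeptide gene, was among those that fell (-1.22, SE 0.75). Crh had -0.26 without shCM1 replicate 2, -0.54 without shCTL replicate 1, -1.91 without shCTL replicate 2 and -2.19 without shCM1 replicate 1, and -0.72 with normexp. Gad1 ran from 0.12 to 0.92 when 1 array was left out, and Gad2 had 0.26 without shCM1 replicate 1. Slc32a1, the vesicular GABA transporter, had 0.15 (SE 0.24), and Sst, the somatostatin gene, 0.21 (SE 0.50); neither passed, although Sst did with quantile normalization (limma with the block, adjusted p 0.0388) and with cyclic loess (0.0347). Both turned negative without shCTL replicate 2 (-0.094 and -0.34) and without shCM1 replicate 1 (-0.063 and -0.36). Within the slides Slc32a1 had 0.121 and 0.184, and Sst had 0.235 and 0.195. Pvalb was not analysed here.

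Markers of other cells moved alongside. Of 15 measured microglia markers 6 rose with the block and 14 were higher on each slide, as were 44.2% of all probes tested. The median of these markers was 0.67. Their summed level, in units of the 75th percentile, was 2.67 to 2.95 in shCTL and 3.4 to 4.46 in shCM1. Here and below, such a sum is led by its brightest probes, so it does not measure the amount of a cell type. Tyrobp rose by 0.97 (SE 0.20), Cd14 by 1.02 (SE 0.21), Fcer1g by 1.01 (SE 0.27) and Aif1 by 1.3 (SE 0.42). Tyrobp had 0.41 by its other probe, Aif1 0.42 with normexp and 0.81 without shCM1 replicate 1, and Cd14 0.53 with normexp. Itgam was well above background on no array.

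Striatal neurons come from the lateral ganglionic eminence and share DLX genes with interneurons. Of 12 striatal markers 4 rose and none fell with the block, with a median of 0.24, and the summed level was 63.2 to 75.1 in shCTL and 67.1 to 89.1 in shCM1. Foxp2 (0.63, SE 0.28), Isl1 (0.75, SE 0.22), Penk (0.39, SE 0.48) and Meis2 (0.29, SE 0.14) rose. Foxp2 had 0.40 without shCTL replicate 2 and 0.32 without shCM1 replicate 1, while Meis2 had 0.19 without shCM1 replicate 1. Isl1 had 0.48 with normexp. Within the slides Penk had 0.36 and 0.417, and its SE with the block was 0.083. Penk had -0.16 without shCTL replicate 2, -0.13 without shCM1 replicate 1 and above 0.9 without either other array. Drd1 and Drd2, the dopamine receptor genes of these cells, had 0.14 and 0.31 and did not pass, and Drd1 turned to -0.094 after quantile normalization.

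The excitatory neuron markers that passed were all lower. Of 12 measured 3 fell and none rose, with a median of -0.09, and Rorb (-0.89, SE 0.24) and Neurod6 (-0.62, SE 0.20) were among those that fell. The markers did not share a direction: 5 of the 12 were lower within both slides and 3 were higher within both. Their median was -0.093 on slide 1 and 0.011 on slide 2. Their summed level was 61.2 to 65.4 in shCTL and 53.1 to 56.3 in shCM1. Rorb had -0.61 without shCTL replicate 2. Of the 10 general neuronal markers Tubb3 fell (-0.37, SE 0.21), and Tubb3 passed neither after cyclic loess nor in the authors' deposited table with the block (limma, adjusted p 0.0774 and 0.0525). It had -0.11 without shCM1 replicate 2, -0.22 without shCTL replicate 1 and -0.62 without shCM1 replicate 1.

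None of 9 astrocyte markers passed (Aldh1l1 -0.28, SE 0.38; Slc1a3 0.13, SE 0.14), with summed levels of 123 to 137 in shCTL and 133 to 137 in shCM1. Of 10 oligodendrocyte lineage markers 2 rose, among them Mbp (0.52, SE 0.17), and Cspg4 fell (-0.35, SE 0.18), with summed levels of 50.8 to 59.2 and 45.6 to 57.9. Mbp had 0.17 by its other probe. Mbp and Cspg4 passed under none of the other 4 scalings. Cspg4 ran from -0.50 to -0.20 when 1 array was left out. None of 7 endothelial markers passed, with summed levels of 0.566 to 0.756 and 0.747 to 0.765, and Cldn5 had 0.71 (SE 0.29) and Tek 0.46 (SE 0.57). Cldn5 had 0.21 with normexp, Tek ran from -0.25 without shCTL replicate 1 to 1.18 without shCTL replicate 2, and Aldh1l1 turned to 0.13 without shCTL replicate 2 and without shCM1 replicate 1. The part of any of these cell types in the differences of the members was not tested.

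**Figure D4:**
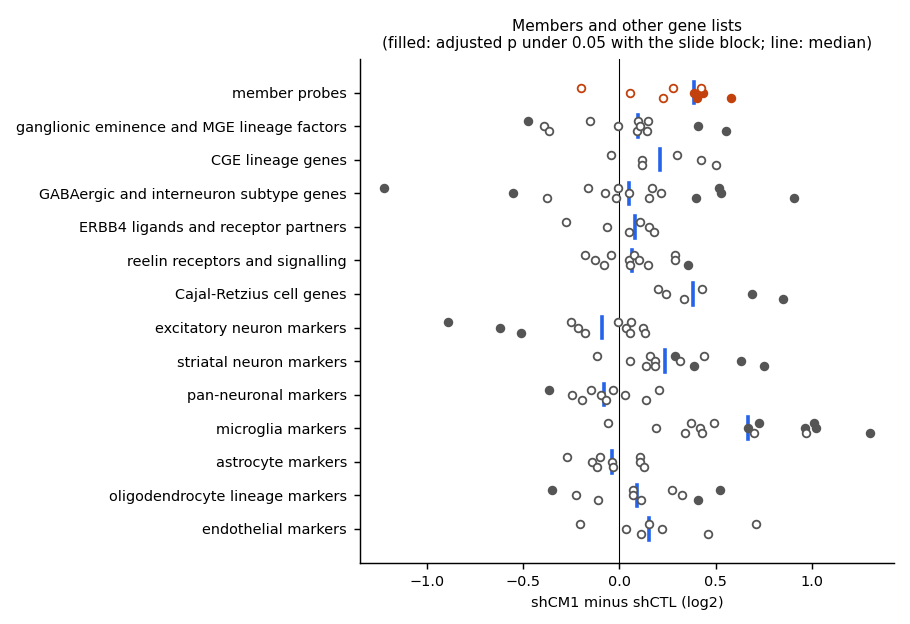
Log2 difference (shCM1 minus shCTL) of the member probes in orange and of the brightest probe of each gene on 13 other lists in grey, with a blue line at each median. Filled points passed the slide-blocked limma fit. Dlx3 and Dlx4 are not drawn. Among the lists drawn the medians run from -0.09 for excitatory neuron markers to 0.67 for microglia markers, with the member probes at 0.39.

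Averaged over the 8 measured members (the brighter Reln probe), the level relative to its own mean was 0.03 and -0.31 on the shCTL arrays and 0.23 and 0.04 on the shCM1 arrays. The lowest array was shCTL replicate 2 and the highest shCM1 replicate 1. Among 17669 other probes that carry a RefSeq gene symbol and were well above background on all 4 arrays, the closest to this profile included Tenm2, Osbpl6, Nfyc and Ptprm, with root mean square distances from 0.00576 to 0.0139. This likeness rests on 4 arrays.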

How the data were processed

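Total RNA of 4 cultures was amplified and labelled with Cy3 on 1-colour Agilent arrays, per the labels' protocols. The deposited scanner files hold linear intensity values from Agilent Feature Extraction 10.7.3.1, detrended spatially and multiplicatively within the array, per the file headers. The authors' value table also holds deposited intensity values on a linear scale; its log2 values correlated with those of each array at 0.9998 or more, the sources used here do not say how it was made, and it served only as an alternative. After outlier spots were dropped, replicate spots were averaged and scaled on the log2 scale to the 75th percentile of the gene probes of each array. The 36696 probes that were well above background on 2 or more arrays were kept. limma 3.58.1 in R 4.3.3 (lmFit, eBayes with intensity trend, two-sided) was fitted on all of them, with Benjamini-Hochberg adjustment over all and a threshold of 0.05, once without a slide term and once with the slide blocked. The procedure was tested on simulated data in which every probe had the same random spread, so that test could not check the intensity trend.

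Same-numbered arrays deviated together (correlation 0.713 across probes), and the file headers place each pair on 1 slide. The members and gene lists were chosen with earlier results of these data known. From each list up to 4 genes past the blocked fit, or else the 2 with the smallest p, were to be named by their brightest probe; Nrg1, Erbb2, Vldlr, Lrp8, Dab1, Tp73, Lhx1, Lhx5, Slc32a1, Sst, Pvalb, Itgam, Drd1, Drd2, Vip and Lamp5 were added after their values were seen. Some genes that the rule would name are not reported here. Genes were named through RefSeq (GRCr8) by accession for 18971 probes and otherwise as in the files. The number of arrays limits the precision.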

Additional observations from a re-analysis of the deposited data

How the results depend on the processing

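With the slide as replicate block limma called 2161 probes and 4 of the 9 member probes, against 0 and 0 without it. With the replicate block the counts were 1352 and 5 after quantile normalization, 1421 and 2 with normexp, 1113 and 4 for the authors' table, 971 and 3 with cyclic loess, 2135 and 5 for probes well above background on all arrays, and 2051 and 4 for 1 probe per gene name. The share of calls that were higher was 54.4% in the scaling used, 38.7% in the authors' table, 40.3% with quantile normalization, 44.7% with normexp and 38.0% with cyclic loess. The block without the intensity trend called 0 probes (6289 at an unadjusted p under 0.05, 4 of them members). The median over the member probes, 0.39 in the scaling used, was 0.35 after quantile normalization and 0.27 with normexp, and ran from 0.115 to 0.481 when 1 array was left out.

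Lhx6 turned negative in the authors' table (-0.14), with cyclic loess (-0.16) and with quantile normalization (-0.15, with or without the block), and ran from -0.25 to 0.36 when 1 array was left out. Reln ran from -0.22 to 0.78 (A_44_P1026292) and from -0.071 to 0.84 (A_44_P294737) then. The other member probes kept their direction in every setting run. Leaving out 1 array unbalances its own slide, so a step between slides enters the difference. The cause of the other changes was not tested.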
